A study of Mus musculus with 32 samples.

Results

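RNA levels of 34 genes of glycolysis, pyruvate handling and the pentose phosphate pathway were compared between mouse embryonic stem cells (mESCs) of wild type (WT) and mESCs labelled Eed-/-. The genes were picked by name, as transporters and enzymes of these pathways, with earlier results of these data known, and no measured value entered the rule. All 34 were found among the 24028 gene symbols of each RNA-seq library, and all of them had a mean normalized FPKM of at least 0.1, the minimum for a gene to be tested. FPKM counts sequenced fragments relative to the length of a transcript and to all mapped fragments of the library, so that levels of different genes can be set side by side. The series holds 32 samples, in which DNA methylation, histone marks, EED binding, chromatin contacts and RNA were measured to ask how Polycomb relates to large unmethylated domains at developmental genes. RNA was measured in 2 libraries, 1 per genotype. No difference between them therefore has a replicate check, no p-value is given, and genotype cannot be told apart from any other difference between the 2 cultures. Both RNA samples carry the label of the TT2 line, whereas Eed-/- samples of other assays are labelled with a different line, so the parental line and the clone behind the library labelled Eed-/- are uncertain. Cells of both genotypes were grown on gelatin in medium with serum and leukemia inhibiting factor. The labels of the 2 RNA samples give neither the mutation of Eed nor any further allele or agent.

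Glycolysis splits glucose, which enters the cell through membrane transporters, into pyruvate in a chain of cytosolic reactions that yields ATP and NADH. Pyruvate is either reduced to lactate and exported, or carried into mitochondria, where the pyruvate dehydrogenase complex turns it into acetyl-CoA and pyruvate dehydrogenase kinases hold that complex back by phosphorylation. The pentose phosphate pathway branches off at glucose 6-phosphate and yields NADPH and ribose 5-phosphate for nucleotide synthesis. Pluripotent stem cells are known for high glycolytic activity even when oxygen is plentiful, and most steps are served by several isoenzymes that differ between tissues.

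EED is the subunit of Polycomb repressive complex 2 that binds methylated H3K27. The Eed transcript itself, on chromosome 7 from 97103166 to 97129493 of NCBIM37 (mm9), stood at an FPKM of 63.0 in WT against 70.9 in the library labelled Eed-/-. The transcript was not reduced, which does not show whether the protein was present. The paper reports that the loss of Eed in its knockout cells was checked by western blot and ChIP-seq of trimethylated H3K27. Whether those were the cells of this RNA library cannot be told from the labels. All 14 mESC markers examined, among them Pou5f1, Sox2 and Nanog, lay at an FPKM of at least 25.5 in WT and at least 26.9 in the other library. The steps between low FPKM values gave a depth of about 7230000 fragments in WT, and of 6460000 in the library labelled Eed-/-. At these depths about 28.9 and 25.8 fragments stand behind an FPKM of 2 where the transcript is 2 kb long. Intervals given for single genes are exact 95% intervals of the log2 ratio of the deposited FPKM, computed from such approximate fragment numbers. They cover counting error only and leave out the spread between cultures.

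Most of the pathway stayed at a similar level in the 2 libraries, and 4 genes stood out. Pdk1, Pgls and Eno3 fell at least 2-fold in the library labelled Eed-/-, and Tpi1 rose just over 2-fold, though not with the FPKM as deposited. Changes are differences in log2(FPKM + 1) of quantile-normalized values, Eed-/- minus WT, and on this scale the change of a scarce transcript comes out too small. On it 1 of 34 genes was at least 2-fold higher, beside 3.8% of all 14835 genes tested, and 3 were at least 2-fold lower, beside 3.98% of all genes. At a 1.5-fold threshold 4 genes were higher, beside 12.3% of all genes, and 6 were lower, beside 12.4%. The share of genes past the 2-fold threshold upward, 2.94%, was near that of all genes, and downward it was 8.82%. Among the 27 genes whose mean FPKM reached 2 the counts were again 1 and 3, beside 4.4% and 4.84% of all genes at that level. The change was below 0 for 25 of the 34 genes, or 73.5%, beside 49% of all genes. The median change was -0.21, beside 0.01 for all genes. All genes include 518 on chromosome X, with a median change of 0.46, and none of the 34 genes lies there. With the FPKM as deposited, without scaling between the libraries, the median of all genes moved to -0.09 and that of the 34 genes to -0.43. The split of all genes past the 2-fold threshold moved with it, from 564 higher and 590 lower to 455 higher and 801 lower. The sign of the change was the same under the 3 scalings for 29 genes, and depended on the scaling for Slc2a3, Pfkfb3, Aldoa, Pgam2 and Dld. In bulk RNA, fewer cells of a type and less RNA per cell cannot be told apart.

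**Figure D1:**
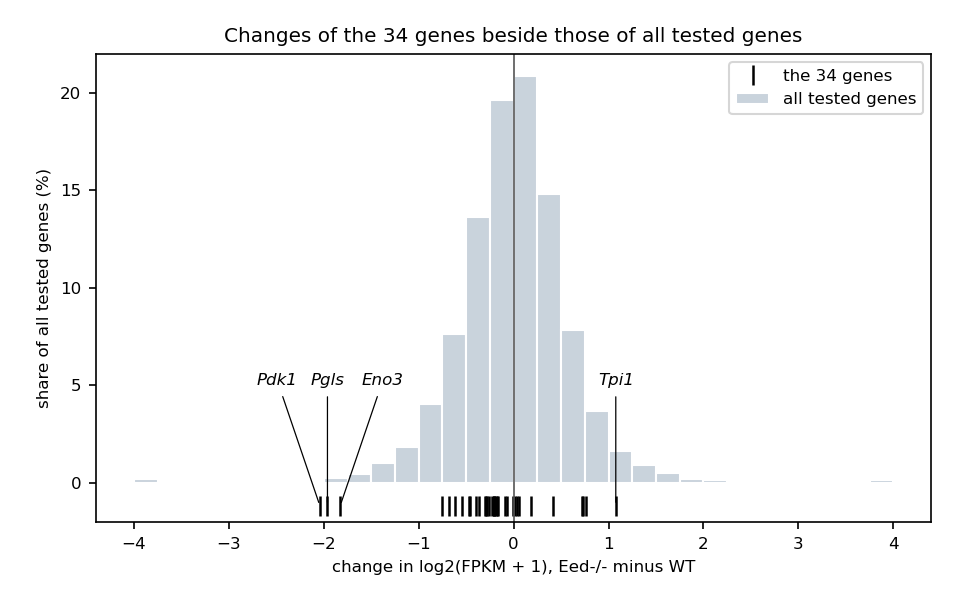
Changes of the 34 genes (ticks under the axis) beside the distribution of all tested genes (bars, share in percent, with changes beyond 4 held in the end bins). The horizontal axis is the change in log2(FPKM + 1) of quantile-normalized values, Eed-/- minus WT. Pdk1 at -2.04, Pgls at -1.96 and Eno3 at -1.83 lie in the lower tail, Tpi1 at 1.08 in the upper, and most other ticks lie between -0.5 and 0.

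The levels spanned more than 3 orders of magnitude within a library. In both libraries 6 genes were above an FPKM of 100. In WT they were Aldoa, Ldha, Slc2a3, Taldo1, Tkt and Slc2a1, and in the library labelled Eed-/- Tpi1 took the place of Slc2a1. At the other end, Pfkfb3, Pfkfb4, Gapdh, Pgam2, Eno2, Pdk2 and Pdk4 had an FPKM under 2 in each library. The other 27 genes were at 2 or more in both.

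**Figure D2:**
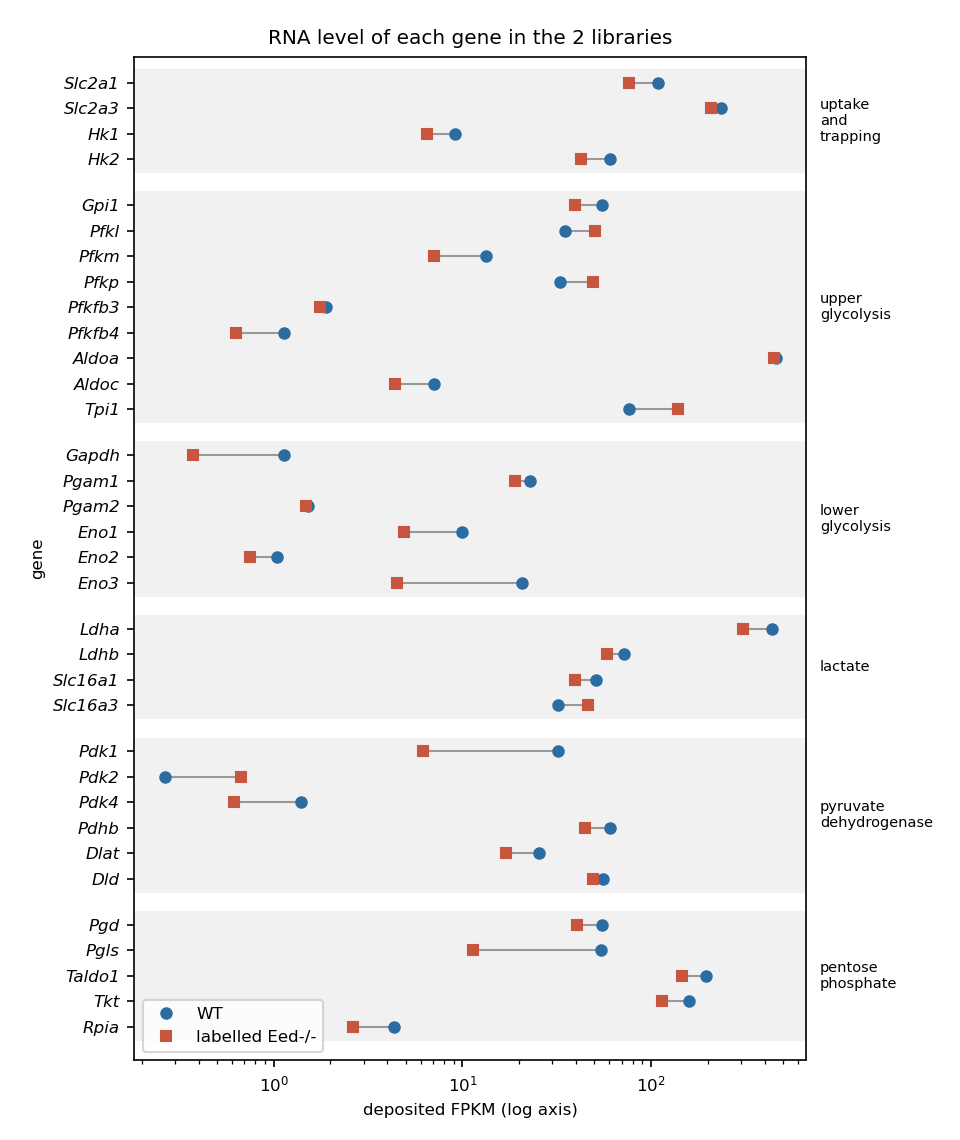
Deposited FPKM of each gene in the WT library (circles) and in the library labelled Eed-/- (squares), on a log axis, with genes ordered by pathway step. The long lines of Pdk1 (32.0 and 6.19), Pgls (54.2 and 11.4) and Eno3 (20.7 and 4.52) point down, and Tpi1 (76.5 and 138) points up.

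Promoter sequences are shown for the 3 genes that fell and for Ldha, the member whose window held the most ACGTG motifs, described below. Each is the 250 bases before a RefSeq transcription start, taken from RefSeq windows of GRCm38.p6 and placed by exact match in NCBIM37, whose coordinates are given. Capitals mark CpG dinucleotides.
Ldha, chr7:54100924-54101173, plus strand: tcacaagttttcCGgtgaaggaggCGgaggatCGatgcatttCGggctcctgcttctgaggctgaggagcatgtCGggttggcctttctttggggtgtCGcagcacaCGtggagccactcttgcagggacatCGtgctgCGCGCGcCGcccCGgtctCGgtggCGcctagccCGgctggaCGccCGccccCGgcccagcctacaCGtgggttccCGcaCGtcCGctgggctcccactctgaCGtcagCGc
Pdk1, chr2:71711031-71711280, plus strand: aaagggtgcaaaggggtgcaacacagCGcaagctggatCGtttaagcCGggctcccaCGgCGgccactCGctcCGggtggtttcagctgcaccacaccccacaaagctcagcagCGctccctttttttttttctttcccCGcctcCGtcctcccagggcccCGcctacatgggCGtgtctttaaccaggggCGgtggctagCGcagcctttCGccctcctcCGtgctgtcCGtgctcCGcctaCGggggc
Eno3, chr11:70470428-70470677, plus strand: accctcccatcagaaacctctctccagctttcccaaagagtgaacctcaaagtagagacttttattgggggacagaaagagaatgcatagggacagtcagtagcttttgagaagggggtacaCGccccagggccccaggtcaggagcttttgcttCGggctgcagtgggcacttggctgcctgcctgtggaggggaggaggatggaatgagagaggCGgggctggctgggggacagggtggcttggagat
Pgls, chr8:74115833-74116082, plus strand: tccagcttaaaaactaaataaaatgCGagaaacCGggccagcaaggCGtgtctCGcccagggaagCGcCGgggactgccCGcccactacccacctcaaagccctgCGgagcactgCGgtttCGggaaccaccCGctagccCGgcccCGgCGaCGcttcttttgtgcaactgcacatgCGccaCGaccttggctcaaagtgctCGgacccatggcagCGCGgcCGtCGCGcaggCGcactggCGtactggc
The start used for Ldha lies 4329 bases inside the gene as annotated in GENCODE vM1, and the last 8 bases of the Pgls window lie in an annotated exon. The windows of Ldha and Pgls each hold 25 CpG, that of Pdk1 holds 19 and that of Eno3 holds 3. The motif ACGTG, read on either strand, is a form of the core bound by hypoxia-inducible factors, and CACGTG, which contains it, is the E-box bound by MYC and related factors. In the Ldha sequence ACGTG occurs at 3 places, 2 of which are CACGTG, and neither motif occurs in the sequences of Pdk1, Eno3 and Pgls. Only this form of the hypoxia core was counted. Another form, GCGTG, read on either strand, does occur in the sequences of Pdk1, Eno3 and Pgls. Over the full windows of 300 bases, which run 50 bases past the start, 33 of the 34 genes had at least 1 window and 47 windows were found. ACGTG was present in 36.2% of these windows, beside 19.6% of 32851 windows of all genes, and CACGTG in 10.6% beside 7.15%. The windows of the 34 genes were also richer in CpG, with a median of 18 beside 7, and an observed to expected CpG ratio of at least 0.6 was reached by 66.0% beside 35.8%. ACGTG itself contains a CpG, so these 2 shares are not independent. The 6 genes whose windows all lay under that ratio were Aldoc, Eno3, Gapdh, Pdk4, Pfkm and Pgam2. A match of letters is a description and shows no binding.

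Glucose uptake and its first phosphorylation differed little between the libraries. Slc2a3, which encodes the high-affinity glucose transporter GLUT3, had an FPKM of 235 in WT against 207 in the library labelled Eed-/-, with a change of 0.04. Its sign turned with the FPKM as deposited, to -0.18. Slc2a1, for the widespread transporter GLUT1, had values of 109 and 76.4 and a change of -0.26. Hexokinases trap glucose in the cell as glucose 6-phosphate. Hk2 was at 60.8 and 42.5 with a change of -0.29, and Hk1 at 9.12 and 6.49 with a change of -0.30. Slc2a3 provided 68.3% of the summed FPKM of the 2 transporters in WT against 73.0% in the other library. Hk2 was the main hexokinase in both, with 87.0% and 86.8%. None of these 4 genes reached 1.5-fold, and the median change of the group was -0.28.

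Upper glycolysis held 3 of the 4 genes that passed 1.5-fold upward, namely Tpi1, Pfkp and Pfkl. They were 3 of its 9 genes, beside 12.3% of all genes. Of the 9 genes 5 had changes below 0, beside 49% of all genes, and the median change was -0.005. Gpi1, the isomerase that makes fructose 6-phosphate, was at 54.6 in WT against 39.7 in the library labelled Eed-/-, with a change of -0.23. Phosphofructokinase commits the sugar to glycolysis, and its 3 subunit genes went different ways. Pfkl, the liver-type gene, was at 35.2 and 50.5 with a change of 0.72. Pfkp, the platelet-type gene, was at 33.0 and 48.9 with a change of 0.76. Pfkm, the muscle-type gene, was at 13.3 and 7.11 with a change of -0.68. All 3 passed the 1.5-fold threshold and none the 2-fold threshold. Their signs held under each scaling, but with the FPKM as deposited Pfkl at 0.51 and Pfkp at 0.56 no longer reached 1.5-fold. The counting intervals of the log2 ratio ran from 0.39 to 0.65 for Pfkl, from 0.45 to 0.69 for Pfkp and from -1.23 to -0.59 for Pfkm. Pfkp overlaps Pitrm1 on the opposite strand, a gene with values of 25.5 and 43.4, and whether the 2 genes share reads in these tables was not tested. Summed over the 3 subunits, phosphofructokinase was at 81.5 in WT against 107 in the library labelled Eed-/-.

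Pfkfb3 and Pfkfb4 encode bifunctional enzymes that set the level of fructose 2,6-bisphosphate, an activator of phosphofructokinase. Both were scarce. Pfkfb3 was at 1.89 and 1.76, and Pfkfb4 at 1.13 and 0.633, and the counting interval of each included 0. Aldolase, which splits the sugar into triose phosphates, came almost wholly from Aldoa, the most abundant of the 34 transcripts, at 458 and 446. Its change was 0.19 after normalization and -0.04 as deposited, and its counting interval of -0.10 to 0.02 included 0. Aldoc, the brain-type gene, was at 7.07 and 4.37 with a change of -0.46.

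Tpi1 encodes triose phosphate isomerase, which interconverts the 2 products of aldolase. It lies on chromosome 6 from 124760604 to 124764314 on the minus strand. Its FPKM was 76.5 in WT against 138 in the library labelled Eed-/-, about 789 and 1273 fragments. The rise was 1.08 on the normalized scale and 1.00 with median-ratio scaling, and with the FPKM as deposited the change was 0.84, under the 2-fold threshold. Its counting interval was 0.72 to 0.98. Of all tested genes, 96.9% had a lower change. Aldoa exceeded Tpi1 by 5.99 times in WT and by 3.23 times in the other library, a comparison within each library that no scaling between them can move.

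In lower glycolysis Eno3 and Eno1 had the largest changes on the log2(FPKM + 1) scale. Enolase makes phosphoenolpyruvate, and its 3 genes are known as the ubiquitous (Eno1), neuronal (Eno2) and muscle (Eno3) forms. Eno3, on chromosome 11 from 70470704 to 70476015 on the plus strand, had an FPKM of 20.7 in WT against 4.52 in the library labelled Eed-/-, about 207 and 40.4 fragments. It fell by 1.83 on the normalized scale, and the change was -1.97 as deposited, with a counting interval of -2.74 to -1.72. Of all tested genes, 0.553% had a lower change. Eno1 was at 9.90 and 4.92 with a change of -0.75, past 1.5-fold. Eno2 was at 1.04 and 0.754, about 19.7 and 12.7 fragments, and its interval included 0. The sum of the 3 genes was 31.6 in WT against 10.2 in the other library, a log2 ratio of -1.63. Eno3 made up 65.4% of that sum in WT against 44.4% in the library labelled Eed-/-, where Eno1 was the larger with 48.2%. The levels of these 2 genes are not equally certain, since Eno1 has 3 near-identical copies elsewhere in the genome and Eno3 has none.

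Because Eno3 is the muscle form, markers of skeletal muscle were set beside it. Of 13 such genes, 9 were tested, and none was at least 2-fold higher, beside 3.8% of all genes. At least 2-fold lower were 2, beside 3.98% of all genes. They were Des (desmin), at 11.2 and 2.42, and Actn3, at 7.20 and 1.03. The regulators Myod1, Myf5 and Myf6 and the fast troponin gene Tnni2 were at 0 in both libraries. The summed FPKM of the list was 124 in WT against 114 in the other library, most of it from Mylpf at 101 and 106. The part of other cells in the change of Eno3 was not tested.

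Of the other genes of lower glycolysis, Gapdh and Pgam2 had low listed values and Pgam1 was close between the libraries. Gapdh, which oxidizes glyceraldehyde 3-phosphate, was listed at 1.13 in WT against 0.374 in the library labelled Eed-/-. These values stood for about 10.2 and 2.99 fragments, with a counting interval of -4.07 to 0.38. Its change was -0.62, past 1.5-fold. The Gapdh sequence has 79 near-identical copies in NCBIM37, so the listed value may not give the level of the transcript. Phosphoglycerate mutase moves the phosphate group before enolase acts. Pgam1 was at 22.9 and 18.9 with a change of -0.09, and Pgam2, the muscle form, at 1.51 and 1.49 with a change of 0.02, about 7.21 and 6.35 fragments. The median change of the 6 genes was -0.40.

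**Figure D3:**
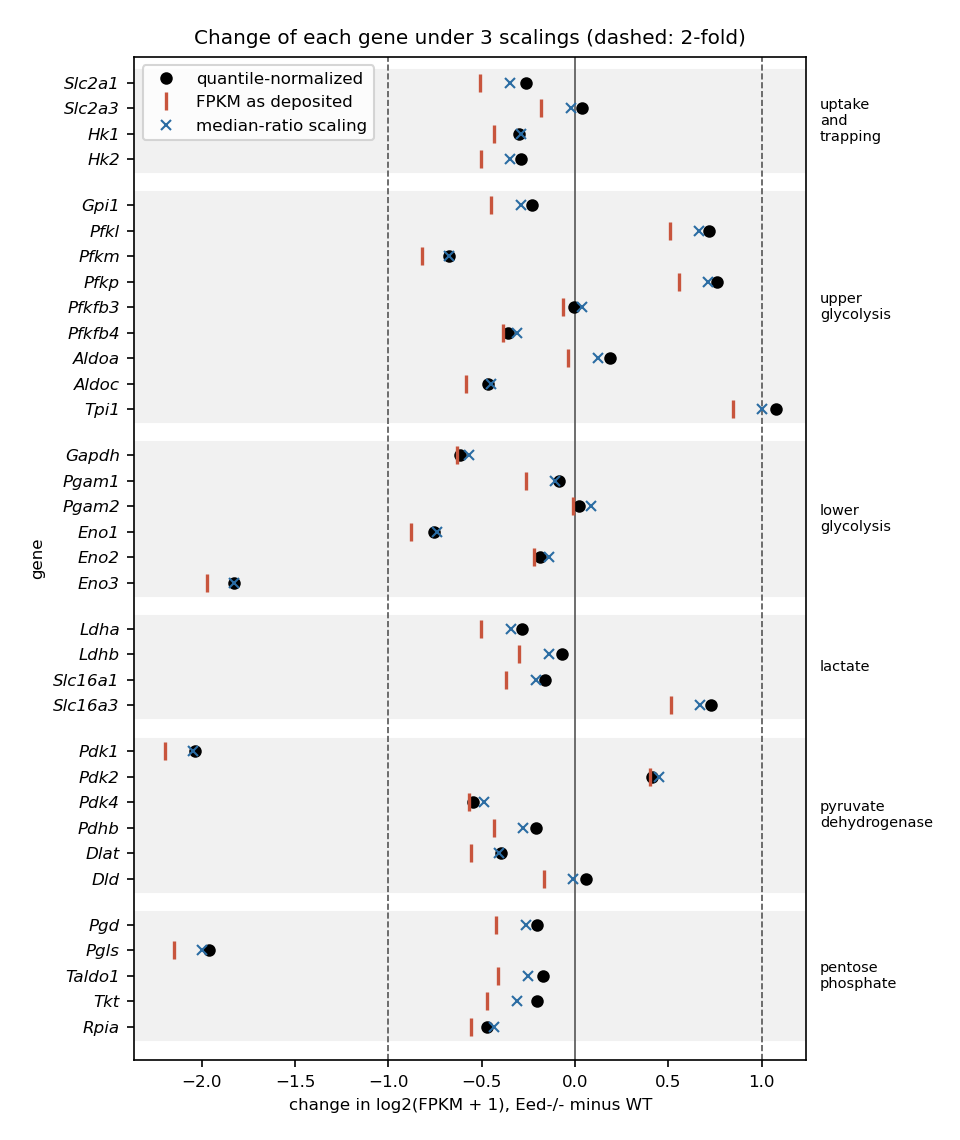
Change in log2(FPKM + 1), Eed-/- minus WT, of each gene under 3 scalings: quantile-normalized (circles), FPKM as deposited (vertical bars) and median-ratio scaling (crosses). Dashed lines mark 2-fold. Pdk1, Pgls and Eno3 lie past the lower line under each scaling, Tpi1 lies past the upper line under 2 of them, and the deposited values lie to the left for most genes.

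Lactate production and export showed opposite changes of the 2 transporters. Ldha, the lactate dehydrogenase subunit that favours lactate formation, was at 438 in WT against 308 in the library labelled Eed-/-, with a change of -0.28. Ldhb was at 72.2 and 58.4 with a change of -0.07. Ldha exceeded Ldhb by 6.07 times in WT and 5.28 times in the other library. Slc16a1, for the monocarboxylate transporter MCT1, was at 51.0 and 39.3 with a change of -0.16. Slc16a3, for MCT4, the transporter typical of lactate-exporting cells, was at 32.0 and 46.1 with a change of 0.73, past 1.5-fold, and a counting interval of 0.40 to 0.65. With the FPKM as deposited its change was 0.51, under that threshold. Slc16a3 overlaps Csnk1d on the opposite strand, whose values were 34.2 and 28.1. Slc16a3 provided 38.5% of the summed transporter FPKM in WT against 54.0% in the library labelled Eed-/-, while the sum was 83.0 and 85.4.

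At pyruvate entry into mitochondria the largest change of the 34 genes was found. Pdk1 encodes a kinase that switches pyruvate dehydrogenase off, and it lies on chromosome 2 from 71711281 to 71741915 on the plus strand. Its FPKM was 32.0 in WT against 6.19 in the library labelled Eed-/-, about 1159 and 200 fragments. It fell by 2.04 on the normalized scale, and the change was -2.05 with median-ratio scaling and -2.20 as deposited, with a counting interval of -2.60 to -2.15. This was a level 4.11 times lower on the FPKM + 1 scale, and 0.371% of all tested genes had a lower change. Pdk2 was at 0.265 and 0.669, about 3.96 and 8.93 fragments, and its interval included 0. Pdk4, known to rise on fasting in muscle, was at 1.40 and 0.615 with a change of -0.55. Pdk1 thus made up 95.1% of the summed FPKM of these 3 kinase genes in WT against 82.8% in the other library, and the sum was 33.7 and 7.48. Pdk3, a kinase of the same family on chromosome X, was at 15.9 and 16.3, so that Pdk1 exceeded Pdk3 by 2.01 times in WT and reached 0.381 times its level in the library labelled Eed-/-.

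The 3 subunits of the complex that are among the 34 genes stayed within 1.5-fold. Pdhb, of the E1 component, was at 60.9 and 44.7 with a change of -0.21. Dlat, the E2 component, was at 25.6 and 17.0 with a change of -0.40. Dld, the E3 component that is shared with other dehydrogenases, was at 55.8 and 49.5 with a change of 0.06, and -0.17 as deposited. Pdha1, the X-linked partner of Pdhb that the kinases phosphorylate and not among the 34 genes, was at 103 and 139. Its change was 0.68, past 1.5-fold, and 0.43 as deposited, under that threshold. The median change of chromosome X was 0.46.

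In the pentose phosphate pathway all 5 genes had changes below 0, beside 49% of all genes. Of the 5 genes, 1 fell past 2-fold, beside 3.98% of all genes. Pgls encodes 6-phosphogluconolactonase, the enzyme after glucose 6-phosphate dehydrogenase, and lies on chromosome 8 from 74116075 to 74124991 on the plus strand. Its FPKM was 54.2 in WT against 11.4 in the library labelled Eed-/-, about 346 and 65.1 fragments. It fell by 1.96 on the normalized scale, and the change was -2.15 as deposited, with a counting interval of -2.66 to -1.86. Chromosome 8 stood lower as a whole, with a median change of -0.38 over its 702 tested genes, and the part of this shift in the change of Pgls was not tested. Pgd, the following dehydrogenase, which yields NADPH, was at 54.7 and 40.5 with a change of -0.20. The non-oxidative enzymes recycle pentoses to sugars of glycolysis. Among them Taldo1 (transaldolase) was at 195 and 146, with a change of -0.17. Tkt (transketolase) was at 160 and 115, with a change of -0.20. Rpia, the ribose 5-phosphate isomerase, was at 4.34 and 2.63, with a change of -0.47. Apart from Pgls, none of the 5 reached 1.5-fold, and with the FPKM as deposited the group's median moved from -0.20 to -0.47.

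**Figure D4:**
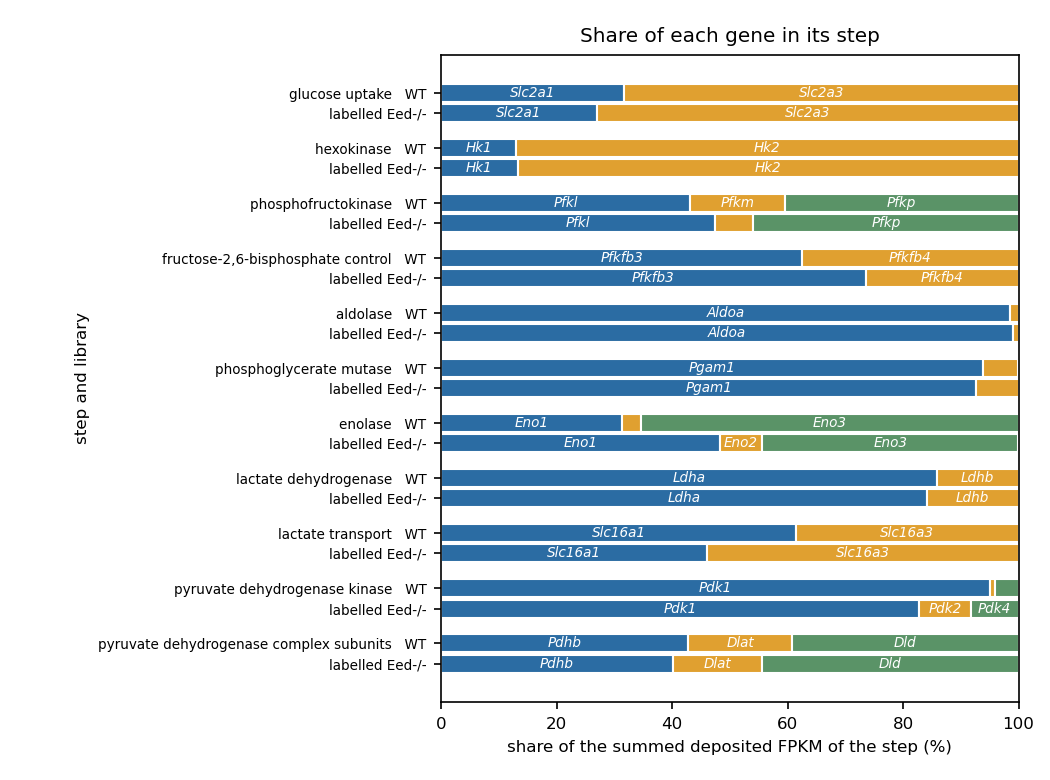
Share of each gene in the summed deposited FPKM of its step (horizontal axis, percent) in the WT library (upper bar of each pair) and in the library labelled Eed-/- (lower bar). Narrow unlabelled segments are Pfkm, Aldoc, Pgam2, Eno2, Pdk2 and Pdk4, from top to bottom. Among the genes drawn, which leave out Pdk3, the largest shifts are the loss of Eno3 share (65.4% to 44.4%), the gain of Eno1 (31.3% to 48.2%) and the gain of Slc16a3 (38.5% to 54.0%). The enolase shares are uncertain, since Eno1 has 3 near-identical copies.

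Isoform shares are taken within 1 library, so a scaling between libraries hardly touches them. Over the 26 shares of the library labelled Eed-/- the quantile-normalized values differed from the deposited ones by at most 0.509 percentage points. Among the 34 genes, the share of Eno3 dropped by 21.0 points and that of Pdk1 by 12.2 points, and the share of Slc16a3 gained 15.4 points. Shares of a step that includes a gene with near-identical copies, as enolase does with Eno1 and its 3 copies, are uncertain. The kinase share depends on the genes counted, and with Pdk3 added, a choice made after seeing the data, that of Pdk1 went from 64.5% in WT to 26.1%, and Pdk3 from 32.1% to 68.5%, wider shifts than those above. Pfkm went from 16.4% to 6.68% of the phosphofructokinase sum. The shares of hexokinase, aldolase, phosphoglycerate mutase and lactate dehydrogenase genes each moved by less than 2 points.

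**Figure D5:**
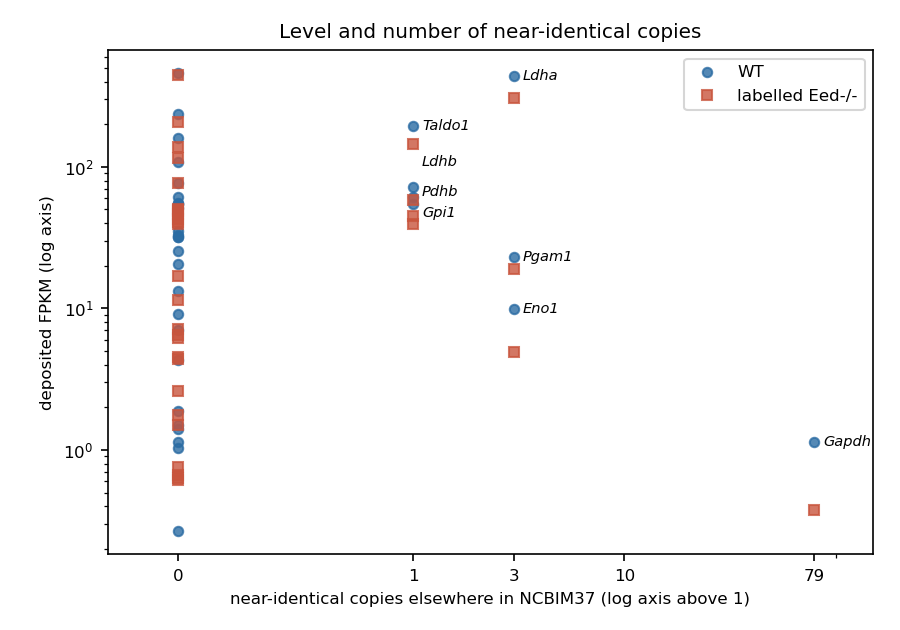
Deposited FPKM (log axis) of each gene in the 2 libraries against the number of near-identical copies in NCBIM37 (log axis above 1, with 0 placed at the left). Gapdh, with 79 copies, is listed at 1.13 and 0.374, and the 7 other genes with a copy lie between 4.92 and 438.

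Near-identical copies limit what FPKM can say of some of these genes, since reads that match several places can be split or dropped. A copy was counted where at least 80% of the transcript aligned elsewhere at 95% identity. Gapdh had 79, Pgam1, Eno1 and Ldha had 3 each, and Gpi1, Ldhb, Pdhb and Taldo1 had 1 each. How the authors' counting treated such reads is not given in the sources used here, and the levels of these 8 genes are uncertain. All 8 had changes below 0, with a median of -0.22. Of the 26 genes without a copy, 17 had changes below 0, or 65.4%, with a median of -0.20. Among all genes 49% had changes below 0. Pdk1, Pgls, Eno3 and Tpi1 have no copy by this measure. Under a wider definition, 50% of the transcript at 90% identity, Tpi1 had 2, Aldoa 7 and Gapdh 198.

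The neighbours of the 4 genes, 3 on each side and looked up after the values of the 4 were seen, did not all move with them. Beside Tpi1, Cdca3, a cell cycle gene 15251 bases away, rose by 1.42, from 67.6 to 155. Usp5, the next listed gene, was at 52.6 and 61.3 with a change of 0.45, and Spsb2, which overlaps Tpi1 on the opposite strand, was at 2.62 and 2.79. The 6 neighbours of Eno3 had changes from -0.32 to 0.62. Around Pdk1, 5 of 6 neighbours had changes below 0, beside 49% of all genes. Itga6, next to Pdk1, was at 27.3 and 23.7 with a change of -0.02. Sp3, 1032569 bases away, also had a change of -0.02. Metap1d, 348030 bases away, was at 8.55 and 5.16 with a change of -0.50. Cdca7, 572301 bases away, was at 58.0 and 35.6, also with -0.50. Gm1631, at 1.77 and 0, was past 2-fold lower. Around Pgls, 5 of 6 neighbours had changes below 0, on a chromosome with a median change of -0.38. Slc27a1 fell by 1.04, from 4.18 to 1.42, and Plvap fell by 1.47. Bst2 was at 66.1 and 36.1 with a change of -0.65, while Glt25d1, on the other side, was at 30.6 and 32.0 with a change of 0.25.

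Other genes of the same pathways, from a list of 60 of which 46 were tested, were mostly within 2-fold. Their median change was 0.12, and -0.02 without the genes of chromosome X, whose median over all 518 tested genes was 0.46. Past 2-fold was 1 gene in each direction, beside 3.8% of all genes upward and 3.98% downward. Fbp2, the muscle form of fructose bisphosphatase, which runs the phosphofructokinase step in reverse, rose by 3.71, from 0.865 to 21.7. Pgm2, a phosphoglucomutase gene, fell by 1.16, from 12.2 to 4.39. Pkm, the pyruvate kinase gene, was at 712 in WT against 636 in the library labelled Eed-/-, above each of the 34 genes. Its change was 0.08, but -0.16 as deposited and -0.002 with median-ratio scaling. Its sequence, annotated under the symbol Pkm2, has 1 near-identical copy. Pgk1, the X-linked phosphoglycerate kinase with 2 near-identical copies, was at 9.32 and 14.5 with a change of 0.72. G6pdx, the X-linked enzyme that opens the pentose phosphate pathway, was at 17.0 and 20.1 with a change of 0.39.

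Genes downstream and upstream of the pathway were examined with fixed lists. For comparison, 3.8% of all tested genes were at least 2-fold higher and 3.98% lower. At the 1.5-fold threshold these shares were 12.3% and 12.4%. None of 20 tricarboxylic acid cycle genes passed 2-fold, and their median change was 0.02. Of 19 tested hypoxia-responsive genes outside glycolysis, 1 was at least 2-fold higher and none was lower, with a median of 0.11. That gene was Ndrg1, at 3.73 and 8.80. At the 1.5-fold threshold 2 were higher, Ndrg1 and Kdm3a with a change of 0.65, and 4 were lower. These were Bhlhe40 with a change of -0.87, Egln3 with -0.86, Car12 with -0.74 and Ddit4 with -0.68. Of 13 tested regulators of glycolytic genes none passed 2-fold. Hif1a, which encodes the oxygen-regulated subunit of hypoxia-inducible factor 1, was at 31.5 and 34.9, with a change of 0.32. Mycn, the most abundant MYC gene of the list, was at 95.9 and 59.1 with a change of -0.45, and Myc was at 13.2 and 9.08 with a change of -0.36.

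Markers of other cells that a stem cell culture can hold were counted too. For comparison, 3.8% of all tested genes were at least 2-fold higher, 3.98% were at least 2-fold lower, and 49% had changes below 0. Of 13 tested primitive endoderm genes 3 were at least 2-fold higher, the basement membrane genes Lama1 (8.25 and 33.5), Col4a1 (5.62 and 19.1) and Col4a2 (2.68 and 6.97), and the summed FPKM of the list was 120 in WT against 158 in the other library. Of the 13 genes 12 had changes above 0, with a median of 0.45. The transcription factor genes of the list were scarce and higher in the library labelled Eed-/-, Gata4 at 0.431 and 1.35, Sox7 at 0.314 and 1.15, Gata6 at 0.184 and 0.514 and Sox17 at 0 and 0.449, none past 2-fold on the log2(FPKM + 1) scale. Of 10 tested trophoblast genes Tfap2c (39.8 and 9.21) and Krt18 (12.1 and 4.69) were lower and Eomes, below the level set for naming, was higher. Of the 10 genes 7 had changes below 0, with a median of -0.53. The list sums were 63.8 and 22.2, with most of the difference from Tfap2c. Of 8 tested fibroblast genes Vim (24.9 and 118) and Thy1 (0.976 and 6.97) were higher, and 4 of the 8 had changes below 0. Fn1, the most abundant of the list in WT, was at 55.9 and 33.5. The sums were 85.3 and 163, a smaller difference than that of Vim by itself. Col1a1, Col1a2 and Col3a1 stayed under an FPKM of 0.5. Of 9 tested neuron genes Nefm was higher, at 0.635 and 3.61. Changes were above 0 for 7 of the 9 and below 0 for 2, with a median of 0.30. The sums were 190 and 168, most of them from Tubb3 (95.4 and 74.0) and Stmn2 (80.2 and 68.9). Among mESC markers Zfp42 was higher, at 131 and 272. The part of other cell types in the changes of the 34 genes was not tested.

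Since the study concerned DNA methylation valleys (DMVs), long domains free of DNA methylation, the 34 genes were split by its list of DMV genes of mESCs. Members of that list were Slc2a1, Slc2a3, Hk1, Hk2, Gapdh, Pgam1, Eno1, Eno3 and Pdhb. Of these 9 genes, 8 had changes below 0, beside 49% of all genes, with a median of -0.29. Eno3 was at least 2-fold lower, beside 3.98% of all genes, and none was at least 2-fold higher, beside 3.8%. Of the other 25 genes, 17 had changes below 0, or 68.0%, with a median of -0.19, and among them were Pdk1, Pgls and Tpi1. Gapdh, Pgam1, Eno1 and Pdhb of the DMV list have near-identical copies, as do Gpi1, Ldha, Ldhb and Taldo1 outside it, so their levels are uncertain. The difference between genes in and outside the DMV list was not tested.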

How the data were processed

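RNA of WT mESCs and of mESCs labelled Eed-/- was sequenced, with 1 strand-specific library of ribosome-depleted total RNA per genotype. The authors mapped reads to mm9 with TopHat, and FPKM were computed with Cufflinks. The deposited tables give 1 FPKM value for each listed symbol. The submitters' processing notes name TopHat2 2.0.11 and Cufflinks 2.2.1, and the methods text names another TopHat version. The annotation and the Cufflinks options are not given in the sources used here. The samples of DNA methylation, ChIP-seq and chromatin contacts were not analysed here.

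Repeated symbols were summed and the 2 libraries quantile-normalized as in the study. A change is the difference in log2(FPKM + 1), with a pseudocount of 1, and genes whose mean normalized FPKM reached 0.1 were tested. With 1 library per genotype a call means a 2-fold or 1.5-fold change on this scale, and no test was made. The genes and lists were chosen with earlier results of these data known. All 34 genes could be named, as could Eed, and of every other list the genes past 2-fold with a mean FPKM of at least 2 (at most 5 by size of change). For pathway steps that the 34 do not cover, the highest expressed gene was named. Other genes named were chosen after their values were seen.

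Positions and transcript lengths came from GENCODE vM1 on NCBIM37 (mm9), where all 34 genes were found. Depth was read from the low FPKM of genes that have 1 transcript in the annotation, if it was 1000 bp or longer, after 180 bp were subtracted from each length. Of 916 low values in WT, 78.4% came within 0.1 of whole fragments, and of 963 in the other library 79.6%, against 20% expected by chance. Fragment numbers used the longest coding transcript and are approximate, and Clopper-Pearson intervals cover counting error only. For genes with several coding transcripts, that length brought fewer low values within 0.1 of whole fragments. They were 59.3% of 1502 in WT and 58.3% of 1658 in the other library. Small non-coding RNAs (1203 symbols) held 97.6% and 95.6% of the summed FPKM. Copies were found with minimap2 2.31. The scripts ran under Python 3.11.15 with matplotlib 3.10.9, scipy 1.17.1, pandas 2.3.3 and numpy 2.4.6, and the computations were tested on simulated data.

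Tried as alternatives were pseudocounts of 0.1 and 0.01, unscaled FPKM, median-ratio scaling over genes whose mean FPKM reached 2, small non-coding RNAs left out, no filter or a mean FPKM of at least 1, repeated symbols left out and, chosen after seeing the data, genes without a near-identical copy alone and Pdk3 added to the kinase shares.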

Additional observations from a re-analysis of the deposited data

How the results depend on the processing

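Pdk1, Pgls and Eno3 were at least 2-fold lower under every alternative. With the FPKM as deposited, no gene was at least 2-fold higher, since Tpi1 was at 0.84, 1 was at least 1.5-fold higher, and the median change was -0.43. With a pseudocount of 0.1, 2 genes (Tpi1 and Pdk2) were at least 2-fold higher, beside 11.4% of all genes, and 5 (Gapdh and Pdk4 added) were lower, beside 12%. A pseudocount of 0.01 gave the same genes, 2 higher beside 12.9% and 5 lower beside 13.4%. Pdk2 and Gapdh rest on about 3.96 and 2.99 fragments in their lower library. Median-ratio scaling, other filters, and leaving out small non-coding RNAs, repeated symbols or genes with a near-identical copy left the counts within 1.5 times. With Pdk3 added, chosen after seeing the data, the share of Pdk1 among the kinase genes in the library labelled Eed-/- was 26.1% in place of 82.8%. No paired analysis was possible because RNA-seq has 1 library per genotype, and for the same reason no library could be left out. The depth limits genes under an FPKM of 2, where counting intervals of 6 of 7 genes included 0.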
